A study of Brassica napus with 27 samples.

Results

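The 200 genes described here had lower group means after 2 short days than in long days in leaves of a double FAH mutant, and higher group means in wild-type leaves. They were chosen from 119532 gene entries in a leaf RNA-seq count table of Brassica napus (oilseed rape). Counts were scaled to CPM, the count divided by the library's column sum and multiplied by 1000000, and 0.1 was added to each group mean. A gene had to have a wild-type mean of at least 2 CPM after 2 short days, a wild-type ratio of SD2 over LD of 2 or more, and a double-mutant ratio of SD2 over LD of 0.5 or less. Of 42853 genes that reached the minimum level, 3678 met the wild-type ratio and 2112 met the double-mutant ratio. All 3 thresholds were met by 301 genes, and the 200 with the largest quotient of the 2 ratios were kept. That choice rests on 12 libraries, so the values in those libraries are given as a description, without a test. The other 15 libraries took no part in the choice, and the tests compare groups of these, with the spread estimated over all 27 libraries.

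The genotypes compared were bnafah, in which BnaA06FAH and BnaC05FAH are both mutant (line A52_4), bnaa06fah, in which only BnaA06FAH is mutant (line A17_10), and wild type (WT) of the cultivar Westar, which carries neither mutation. Each was sampled in long days (LD, 0 days in short days) and after 1 (SD1) and 2 (SD2) days in short days, with 3 libraries in each of 9 groups. The mutants were made by CRISPR/Cas9 mutagenesis, are described as transgene-free, and each is represented by a single line. Their labels call them knock-downs and the design text calls the alleles null, and the labels state the same light period for long and short days; the names LD, SD1 and SD2 are used as labelled. The labels do not say that replicates came from separate plants, and the p-values then reflect only how far these libraries differ, which may be technical. No long-day leaves of the later days were sampled, so age and day length cannot be told apart. The targeted FAH genes are not reported here, so the genotypes are taken from the labels alone.

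Tyrosine is degraded in a chain of steps that ends with fumarylacetoacetate hydrolase (FAH). In Arabidopsis, loss of this enzyme causes cell death that appears in short days. Of the 200 genes, 2 carry a gene name in the reference. PIP2 (LOC106392705) encodes an aquaporin, one of the membrane channels that let water pass into and out of cells, and SUT2-1 (LOC106400948) belongs to the sucrose transporters, which move sucrose across membranes on its way between leaves and other organs. The other 198 are known here by identifier alone and are given no role.

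Of the 200 genes, 166 matched a RefSeq table of genes in the Da-Ae assembly, 155 as protein-coding genes, 7 as long noncoding RNAs and 4 as pseudogenes, and 34 had no match. Among all 200, 20 have BNA identifiers, 11 with A and 9 with C in the subgenome position. All 200 passed the filter on low counts, which kept 72039 genes for testing. Library totals ran from 49700646 to 58862542 counts with 70172 to 73495 genes detected, so depth limits mainly the members with few counts. One library stood apart from its group. Replicate 2 of bnafah SD2 had 66.0 CPM of BiP, an endoplasmic reticulum chaperone induced by protein folding stress, against 379.8 and 378.9 CPM in replicates 1 and 3. Crt1, a calreticulin of the same compartment, had 50.2 CPM there, against 158 and 172 CPM. Summed, the 2 genes had 116 to 551 CPM at bnafah SD2, against 25.1 to 154 CPM in the libraries of the other 8 groups.

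Marker sums were taken per library beside these levels. The 9 plastid-encoded genes listed as leaf markers were all found and summed to 24.0 to 26.1 CPM at WT SD2, against 9.35 to 19.8 CPM at WT LD. In bnaa06fah these genes summed to 21.4 to 34.3 CPM at SD2, against 13.5 to 21.0 CPM in LD. In bnafah the sums were 19.7 to 30.7 CPM at SD2, against 13.9 to 22.9 CPM in LD, with overlap. The 4 cellulose synthase genes of vascular secondary walls summed to 4.50 to 12.9 CPM at WT SD2, against 23.7 to 29.6 CPM at WT LD, and to 8.83 to 15.6 CPM at bnafah SD2, against 11.6 to 26.6 CPM at bnafah LD. The 3 senescence regulators summed to 4.09 to 20.4 CPM at bnafah SD2, against 0.949 to 15.4 CPM at bnafah LD. In WT they summed to 1.77 to 6.87 CPM at SD2, against 4.76 to 8.71 CPM in LD, with overlap. In bnaa06fah they summed to 7.67 to 36.2 CPM at SD2, against 1.49 to 4.26 CPM in LD, and the cellulose synthase genes to 5.06 to 12.1 CPM at SD2, against 15.4 to 24.3 CPM in LD, neither with overlap. At SD1 the senescence regulators summed to 4.07 to 38.9 CPM in bnafah and 0.748 to 2.28 CPM in bnaa06fah, against 16.9 to 29.8 CPM in WT, so bnaa06fah lay below WT without overlap. Of 5 flower and pollen names only AGL20 was found, at 14.7 to 170.2 CPM over all libraries, and neither of the 2 root names was found. The part of these shifts in the levels of the 200 genes was not tested. In whole leaves, fewer cells of a type and less RNA per cell cannot be told apart.

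The opposite courses that the rule asked for show in the medians over the 200 genes of each group's mean. In bnafah the median was 6.28 CPM in LD, 4.64 CPM at SD1 and 0.874 CPM at SD2. For bnaa06fah it was 3.30 CPM in LD, 4.54 CPM at SD1 and 3.33 CPM at SD2. In WT it was 2.07 CPM in LD, 4.199 CPM at SD1 and 9.15 CPM at SD2. The rule set the LD and SD2 medians of bnafah and WT apart; those of bnaa06fah and those at SD1 were free of it. At SD1 the 3 genotypes stood within 4.199 to 4.64 CPM of each other in this median.

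The WT ratio of SD2 over LD had a median of 3.84 over the members, with 57 of them at 5 or more and 24 at 10 or more. The bnafah ratio had a median of 0.246, with 74 members at 0.2 or less and 27 at 0.1 or less. Among the 191 members with counts in both WT LD and bnafah SD2, the WT ratio reached 89.8 and the bnafah ratio went down to 0.00965; 3 members were at 0 in all WT LD libraries and 8 in all bnafah SD2 libraries, where the ratio depends on the 0.1 added. Group means hide much of the spread. In 96 members all WT SD2 libraries were above all WT LD libraries, beside 20.1% of the 72039 tested genes, and in 100 members all bnafah SD2 libraries were below all bnafah LD libraries, beside 8.19% of tested genes. Both separations held in 34 members, a count for which no share over all tested genes was taken. Since the rule used these libraries, nothing is read from these counts except how far the means are borne out library by library.

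Single libraries carried many of these means. Replicate 2 of WT SD2 was the lowest of its group in 141 of the 200 genes and replicate 1 the highest in 114. At bnafah LD replicate 3 was the lowest in 128 genes and replicate 1 the highest in 122. Replicate 2 of bnafah SD2, the library with little BiP, was the highest of its group in 115 genes. No share over all tested genes was taken for these counts, so they are not read as particular to the 200. Without bnafah SD2 replicate 2, 396 genes met the 3 thresholds and 190 of the 200 were among them. Whichever 1 of the 12 libraries that the rule used was left out, 93 of the 200 met all thresholds each time. The number of genes that met them ran from 229 without WT SD2 replicate 1 to 418 without WT SD2 replicate 2.

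**Figure D1:**
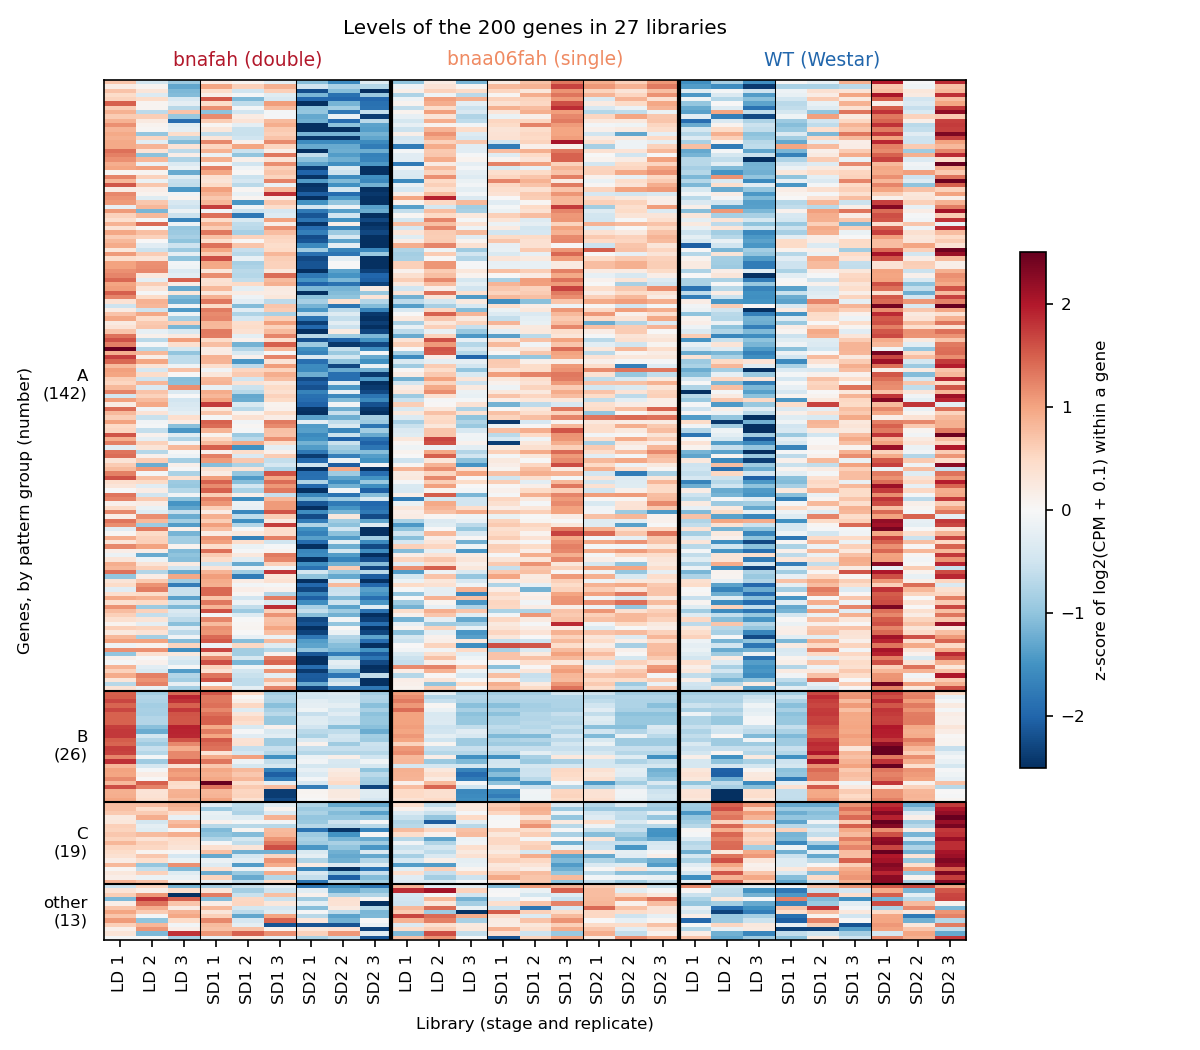
Levels of the 200 genes (rows) in the 27 libraries (columns), as the z-score within each gene of log2(CPM + 0.1), with rows ordered by pattern group. Group A, with 142 genes, is lowest at bnafah SD2 and highest in WT SD2 replicates 1 and 3, and groups B and C are each high in a few libraries.

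In long days the bnafah means were mostly above the WT means. The mean of bnafah LD was above that of WT LD in 176 of the 200 genes, or 88.0%, beside 44.5% of the 42853 genes that reached the minimum level. This direction is favoured by a rule that asks for a fall in one genotype and a rise in the other. The mean of bnaa06fah LD, which the rule did not use, was above that of WT LD in 159 genes, or 79.5%, beside 40.6%; the WT LD means in this comparison were used by the rule. By SD1 the WT mean lay between the LD and SD2 means in 164 genes, or 82.0%, beside 49.2% of the 42853 genes. The rule set those LD and SD2 means apart, which leaves more room between them, so this share is favoured by the rule too. The bnafah SD1 mean lay between the bnafah LD and SD2 means in 102 genes, or 51.0%, beside 52.6%. It lay above both in 95 genes, or 47.5%, beside 30.0%, and below both in 2 genes, or 1%, beside 17.3%. The bnafah LD and SD2 means were set apart by the rule as well.

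PIP2, the aquaporin gene, had 78.6, 59.8 and 43.0 CPM in bnafah LD libraries, 51.1, 54.9 and 73.0 CPM at SD1 and 8.69, 9.78 and 6.90 CPM at SD2. In bnaa06fah it had 46.1, 67.4 and 31.7 CPM in LD, 71.2, 80.6 and 83.0 CPM at SD1 and 37.8, 20.8 and 26.3 CPM at SD2. In WT it had 21.2, 38.2 and 19.0 CPM in LD, 39.7, 41.3 and 48.2 CPM at SD1 and 124, 17.8 and 76.2 CPM at SD2. The bnafah SD2 libraries were all low and close together, replicate 2 included, whereas WT SD2 replicate 2 was lower than every WT LD library. In bnaa06fah the gene was high at SD1 and lower at SD2, with SD2 and LD libraries that overlap. The log2 fold change of bnaa06fah SD2 over LD was -0.96 ± 0.43 (SE) and did not pass (edgeR adjusted p = 0.159). At SD1 the bnaa06fah libraries were all above those of WT, by 0.87 on the log2 scale (edgeR adjusted p = 0.469), and the bnafah libraries were too, by 0.46 (edgeR adjusted p = 1), so neither passed. The member whose course was most like that of PIP2 was LOC106441064 (Pearson's r = 0.976 over 27 libraries of log2(CPM + 0.1)).

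SUT2-1, the sucrose transporter gene, had 46.6, 59.0 and 12.1 CPM in bnafah LD libraries, 60.5, 39.7 and 36.7 CPM at SD1 and 5.09, 22.6 and 2.48 CPM at SD2. In bnaa06fah it had 19.4, 46.7 and 18.9 CPM in LD, 32.0, 39.1 and 72.2 CPM at SD1 and 53.7, 54.8 and 61.2 CPM at SD2. In WT it had 29.14, 11.2 and 6.89 CPM in LD, 29.05, 46.3 and 29.5 CPM at SD1 and 81.0, 51.5 and 44.6 CPM at SD2. All WT SD2 libraries were above all WT LD libraries, and in bnaa06fah the 3 SD2 libraries were also above the 3 LD libraries. The bnafah SD2 and LD libraries overlapped, because SD2 replicate 2 was above LD replicate 3. For bnaa06fah SD2 over LD the log2 fold change was 0.81 ± 0.67 (SE) and did not pass (edgeR adjusted p = 0.477). The most alike members were LOC106401005, with r = 0.989 over 27 libraries, and LOC106429767, with r = 0.973. These correlations are descriptions, since all members share the group means that the rule set.

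**Figure D2:**
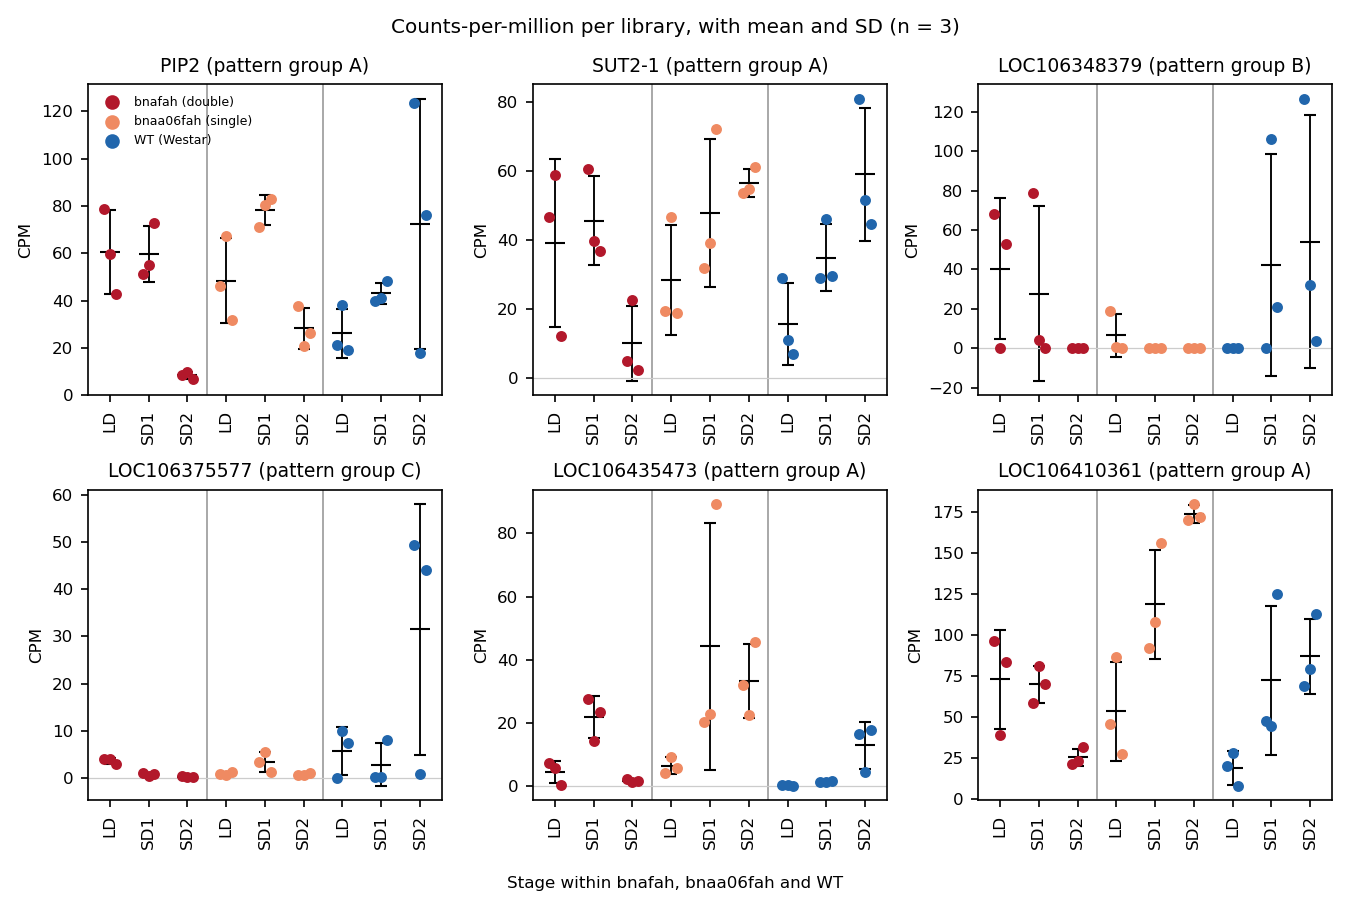
CPM of 6 members in each library (points), with the group mean and SD (bars, n = 3), for bnafah, bnaa06fah and WT in LD, SD1 and SD2. PIP2 is below 10 CPM in all 3 bnafah SD2 libraries, and LOC106410361 stands at 170.0 to 180.3 CPM in bnaa06fah SD2.

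The members with the most reads in WT SD2 were LOC106447175, LOC106392095, LOC106431464, LOC106353136 and LOC106388044, all of group A below, with means of 244 to 267 CPM. Per length they were also high, at 356, 323, 219, 118 and 325 FPKM in that order in the authors' deposited table, where the median member had 8.12 FPKM at WT SD2. LOC106431464 had 60.7, 81.4 and 46.3 CPM at bnafah SD2, against 221, 222 and 71.3 CPM at bnafah LD, and 356, 159.6 and 281 CPM at WT SD2, against 120.3, 68.6 and 74.6 CPM at WT LD. Only the WT groups were free of overlap. In bnaa06fah LOC106431464 stood at 164, 139 and 162 CPM at SD2, against 96.1, 139 and 148 CPM in LD. LOC106447175 had 35.0, 33.6 and 118 CPM at bnafah SD2, against 252, 128 and 31.2 CPM at bnafah LD, so LD replicate 3 was below every SD2 library.

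Correlated courses split the 200 genes into groups. Average-linkage clustering on 1 minus Pearson's r of log2(CPM + 0.1) over 27 libraries, with a distance limit of 0.5 chosen after the values were seen, gave group A with 142 genes, B with 26, C with 19 and 13 others. The median r between pairs of genes was 0.648 in A, 0.804 in B and 0.733 in C, against 0.498 over all 200. Each library was also expressed as its deviation from its group mean, which takes out the differences between group means. The median r was then 0.460 in A, 0.781 in B and 0.730 in C, against 0.308 over all 200. Single libraries carried many of the means that the rule used, so these deviations are not free of the rule. The groups were formed on these same libraries, replicate differences included, so high values within a group follow in part from how it was formed. Between the groups the median r was 0.245 for A and B, 0.341 for A and C, and 0.190 for B and C.

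Group A was the largest, and its median levels at SD2 were separate from those in LD in bnafah and in WT. Its median level per library was 0.854, 1.57 and 0.755 CPM at bnafah SD2, against 9.49, 4.85 and 3.37 CPM at bnafah LD. In WT it was 10.5, 4.87 and 10.3 CPM at SD2, against 2.23, 3.33 and 1.22 CPM in LD. The bnaa06fah libraries ran from 4.88 to 6.14 CPM at SD2, against 3.39 to 7.61 CPM in LD. PIP2 and SUT2-1 belong to this group. Of these, only SUT2-1 met all thresholds whichever 1 of the 12 libraries of the rule was left out. All WT SD2 libraries were above all WT LD libraries in 77 genes of group A, and all bnafah SD2 libraries below all bnafah LD libraries in 75. Over all tested genes these shares were 20.1% and 8.19%, and the rule used these libraries, so the counts are descriptions.

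Group B held all 10 genes of largest quotient, and its level differed widely between libraries of the same group. The median over its 26 genes was 0.322, 0.245 and 0 CPM at bnafah SD2, against 23.6, 0.0553 and 30.4 CPM at bnafah LD. At bnafah SD1 it was 19.5, 2.32 and 0 CPM. In bnaa06fah it was 11.0, 0.354 and 0 CPM in LD and at most 0.242 CPM in every SD1 and SD2 library. The genes differed in level there: at bnaa06fah SD2, 10 of the 26 had a mean above 1 CPM and 16 a mean below it. In WT the median was 33.2, 12.8 and 1.34 CPM at SD2, against 0.127, 0.0905 and 0.585 CPM in LD, and 0, 31.5 and 6.16 CPM at SD1. High and low libraries thus occurred within the same group in bnafah LD, bnafah SD1, bnaa06fah LD and WT SD1. All 3 WT SD2 medians were above all 3 WT LD medians, an order that the rule favours. The WT SD2 medians still ran from 1.34 to 33.2 CPM, and 13 of the 26 genes were below 1 CPM in WT SD2 replicate 3. All WT SD2 libraries were above all WT LD libraries in 14 of the 26 genes, and all bnafah SD2 libraries below all bnafah LD libraries in 4. The shares over all tested genes were 20.1% and 8.19%, and the rule used these libraries.

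LOC106348379, which had the largest quotient, shows this pattern. It had 0.209, 0.280 and 0 CPM at bnafah SD2, against 68.2, 0 and 53.1 CPM at bnafah LD, and 78.8, 4.14 and 0 CPM at bnafah SD1. In bnaa06fah it had 19.1 CPM in LD replicate 1 and at most 0.436 CPM in the other 8 libraries. In WT it had 127, 31.9 and 3.84 CPM at SD2, was at 0 in all 3 LD libraries, and had 0, 106 and 20.9 CPM at SD1. The other 9 genes of largest quotient were LOC106437575, BNAC09G50070D, BNAC04G41400D, LOC106419168, LOC106437574, LOC106387858, LOC106387856, LOC111204223 and LOC111204222. BNAC04G41400D, for example, had 0.766, 0.751 and 0 CPM at bnafah SD2, against 76.0, 0.0738 and 77.8 CPM at bnafah LD, and 96.2, 49.2 and 2.82 CPM at WT SD2, against 0.289, 0.221 and 1.10 CPM at WT LD. In both genes LD replicate 2 of bnafah was near 0 while the other 2 bnafah LD libraries were high. Of the 26 genes in B, 17 met all thresholds whichever 1 of the 12 libraries of the rule was left out. The same held for 65 of 142 genes in A, 8 of 19 in C and 3 of the 13 others.

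Group C was high in WT SD2 replicates 1 and 3. Its median was 0.261, 0.0699 and 0.126 CPM at bnafah SD2, against 1.27, 1.24 and 1.46 CPM at bnafah LD. In WT it was 10.5, 0.496 and 12.2 CPM at SD2, against 0.220, 3.98 and 1.62 CPM in LD. LOC106375577, an example chosen after its values were seen, had 0.348, 0.192 and 0.0898 CPM at bnafah SD2, against 4.07, 3.96 and 2.83 CPM at bnafah LD, and 49.4, 0.820 and 44.2 CPM at WT SD2, against 0.0680, 9.86 and 7.37 CPM at WT LD. The bnafah libraries of LOC106375577 were thus separate between stages and the WT libraries were not. Over the group, all bnafah SD2 libraries lay below all bnafah LD libraries in 16 of the 19 genes, beside 8.19% of tested genes. All WT SD2 libraries lay above all WT LD libraries in 1 gene, beside 20.1% of tested genes. The rule used these libraries. Of the 7 long noncoding RNAs, 3 (LOC106431391, LOC106387936 and LOC111203167) were in group C and 4 in group A.

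**Figure D3:**
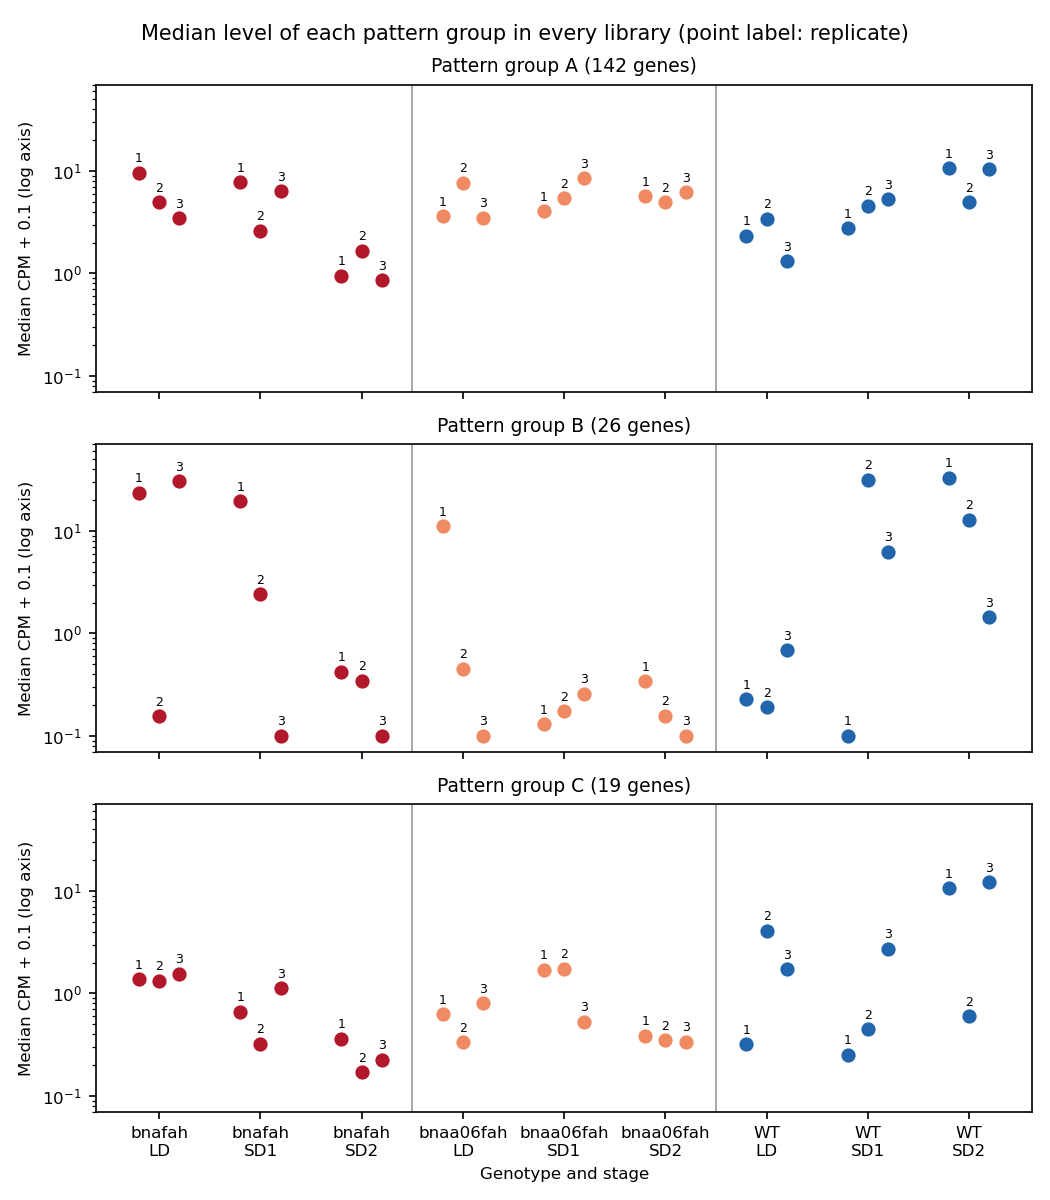
Median CPM + 0.1 (log axis) of the genes of pattern groups A, B and C in each of the 27 libraries, with the replicate number beside each point. Group A is low in all 3 bnafah SD2 libraries, whereas B spans from near 0 to over 20 CPM among replicates of bnafah LD and C among replicates of WT SD2 spans 0.496 to 12.2 CPM.

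Some members repeat each other. Of 19900 pairs, 10 pairs with 14 members had r above 0.99, led by LOC106449035 with LOC111212234 (r = 0.9999) and LOC106387858 with LOC106387856 (r = 0.9996). Whether such genes are near-identical copies that share reads was not tested, and their separate values are uncertain. Along the Da-Ae gene order 162 members were placed, and 5 pairs lay within 5 positions of each other. In 4 pairs the genes were direct neighbours: LOC106437575 with LOC106437574 (r = 0.966), BNAC04G41400D with LOC106348378 (r = 0.909), LOC106411834 with LOC106411833 (r = 0.853) and LOC106413669 with LOC106413666 (r = 0.805). The members nearest the limit of the rule were BNAC07G06590D, LOC106361199 and BNACNNG19610D, with quotients of 7.79, 7.76 and 7.74, and the genes nearest outside it were BNAA07G02880D, LOC106360189 and LOC106384851, with 7.73, 7.71 and 7.70.

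In bnaa06fah, whose libraries had no part in the choice, the 200 genes did not move one way. The ratio of SD2 over LD was 2 or more in 33 genes (16.5%, beside 9.96% of the 42853 genes at the minimum level), 0.5 or less in 40 (20.0%, beside 3.89%), and between these in 127. Its median was 1.01, beside 1.14 for the 42853 genes. By edgeR, 2 of the 200 were called higher at SD2 (adjusted p below 0.05; 5.06% of all tested genes were called higher) and 2 lower (4.91% of all tested genes). Each count is 1% of the members, below the background. The spread in this fit also drew on the 12 libraries that the rule used, and whether this lowered the counts was not tested. DESeq2 called 8 higher (7.59% of its tested genes) and 9 lower (7.81%), and edgeR with only the 6 libraries compared called 11 higher (8.7%) and 12 lower (9.52%). All bnaa06fah SD2 libraries were above all bnaa06fah LD libraries in 35 members, beside 25.3% of tested genes, and below in 12, beside 13.8%. The median log2 fold change was -0.15 over the members and 0 over all tested genes. In group A it was 0.13, with 79 genes above 0 and 63 below. In group B it was -3.20, or -2.81 with the genes at 0 in every SD2 library placed at the bound that 3 counts per library give, and none of the 26 genes was above 0. The LD level of group B rests on replicate 1, where its median was 11.0 CPM, against 0.354 and 0 CPM in the other 2 LD libraries. In group C it was -0.67.

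LOC106410361 and BNAA09G12300D, both of group A, were the members called higher at bnaa06fah SD2. LOC106410361 had 170.0, 180.3 and 172 CPM at SD2, against 46.0, 86.7 and 27.7 CPM in LD. The groups did not overlap, and the log2 fold change was 1.52 ± 0.48 (SE; edgeR adjusted p = 0.0489). BNAA09G12300D averaged 150.4 ± 14.8 CPM at SD2, against 38.4 ± 20.3 CPM in LD (SD, n = 3 each), and its log2 fold change was 1.78 ± 0.57 (SE; edgeR adjusted p = 0.0479). Under the rule both have higher SD2 than LD means in WT and lower ones in bnafah.

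LOC106364061 of group C and LOC106420230 of group B were called lower at bnaa06fah SD2. LOC106364061 had 1.40, 1.36 and 0.423 CPM at SD2, against 7.03, 5.23 and 6.53 CPM in LD. The groups did not overlap, and it fell by 2.73 ± 0.75 on the log2 scale (SE; edgeR adjusted p = 0.0258). LOC106420230 averaged 19.2 ± 3.66 CPM at SD2, against 75.3 ± 56.2 CPM in LD (SD, n = 3 each), and fell by 2.16 ± 0.67 on the log2 scale (SE; edgeR adjusted p = 0.0437), with groups that overlap. These 4 calls were close to the threshold. Each was lost when any 1 of 5 libraries was left out: for all 4 genes bnaa06fah LD replicate 1 and each of the 3 bnaa06fah SD2 libraries, with LD replicate 2 for LOC106420230 and LD replicate 3 for the other 3 genes. The adjusted p then reached 0.197 for LOC106410361, 0.179 for BNAA09G12300D, 0.0956 for LOC106364061 and 0.215 for LOC106420230. Without LD replicate 2 the log2 fold change was -1.41 for LOC106420230 and 2.103 for LOC106410361. With no filter on low counts, the adjusted p was 0.0602 for LOC106410361, 0.0610 for BNAA09G12300D and 0.0627 for LOC106420230, which ended these calls too, and with only the 6 libraries compared it was 0.0542 for LOC106420230.

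For bnaa06fah SD1 against LD edgeR called 0 of the 200 genes higher and 0 lower, beside 0.211% of tested genes called higher and 0.0569% called lower. With an unadjusted p below 0.05, 15 were higher (7.55% of tested genes) and 11 lower (6.05%), and DESeq2 called 1 higher (1.97% of its tested genes) and 2 lower (1.14%). All SD1 libraries were above all LD libraries in 38 members, beside 19.1% of tested genes, and below in 7, beside 7.22%. The median log2 fold change was 0.32 over the members, with 117 above 0, and 0 over all tested genes. In group A the median was 0.47, in C 0.85, and in B -3.56, or -3.18 with genes at 0 placed at their bound. The bnaa06fah SD1 mean lay above both the LD and the SD2 means in 100 of the 200 genes, beside 33.1% of the 42853 genes, and below both in 42 (21.0%), beside 12.7%.

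At SD1 each mutant was set against WT. These comparisons share the 3 WT SD1 libraries, so their values are given side by side and are not independent. For bnafah edgeR called 2 of the 200 genes higher than in WT, beside 0.353% of tested genes, and 0 lower, beside 0.212%. With an unadjusted p below 0.05, 6 were higher (3.38% of tested genes) and 2 lower (2.57%), and DESeq2 called 2 higher (0.685% of its tested genes) and 1 lower (0.535%). For bnaa06fah edgeR called 2 higher, beside 0.823%, and 0 lower, beside 2.24%. With an unadjusted p below 0.05, 12 were higher (4.82% of tested genes) and 17 lower (6.45%), and DESeq2 called 3 higher (1.42% of its tested genes) and 10 lower (2.97%). With only the 6 libraries compared, edgeR called 4 higher (0.894%) and 1 lower (2.79%). All 3 bnafah libraries were above all 3 WT libraries in 9 members, beside 4.53% of tested genes, and below in 2, beside 5.08%. All 3 bnaa06fah libraries were above those of WT in 21 members, beside 8.37%, and below in 6, beside 9.89%. The median log2 fold change over the members was 0.19 for bnafah and 0.26 for bnaa06fah, and within 0.01 of 0 over all tested genes. In group A 111 of 142 genes were above 0 for bnafah and 113 for bnaa06fah, with medians of 0.31 and 0.41. In group B the medians were -0.87 and -5.49, the second -4.69 with genes at 0 placed at their bound. The WT SD1 medians of the group were 0, 31.5 and 6.16 CPM. WT SD1 replicate 1 was the lowest of its group in 158 of the 200 genes, a count without a share over all tested genes.

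LOC106435473 and LOC106428920 were called in each of these comparisons, which share their WT libraries. LOC106435473, of group A, had 27.5, 14.4 and 23.5 CPM in bnafah and 20.4, 22.9 and 89.4 CPM in bnaa06fah, against 1.36, 1.33 and 1.67 CPM in WT. Each mutant library was above every WT library. It was higher than in WT by 3.88 ± 0.81 on the log2 scale in bnafah (SE; edgeR adjusted p = 0.0225) and by 4.97 ± 0.85 in bnaa06fah (SE; edgeR adjusted p = 5.62e-04). The bnafah call was lost without any 1 of the WT SD1 libraries or without bnafah SD1 replicate 1 or 3, with an adjusted p of up to 0.151, and the bnaa06fah call was kept without each 1 of the 6 compared libraries and without bnafah SD2 replicate 2, with an adjusted p of at most 0.00802. Without bnaa06fah SD1 replicate 3, the library at 89.4 CPM, the log2 difference in bnaa06fah was 3.86. The same gene then stood at 2.28, 1.33 and 1.53 CPM at bnafah SD2, 32.0, 22.5 and 45.8 CPM at bnaa06fah SD2 and 16.6, 4.37 and 17.9 CPM at WT SD2, and at 0.425, 0.302 and 0 CPM at WT LD. Its WT libraries were thus highest at SD2, and its bnafah libraries were higher at SD1 than at SD2. In bnaa06fah it averaged 44.2 CPM at SD1 and 33.4 CPM at SD2, against 6.48 CPM in LD. Neither bnaa06fah change from LD was called (edgeR adjusted p = 0.114 at SD1 and 0.0632 at SD2).

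LOC106428920, among the 13 genes outside the groups, had 15.9, 15.9 and 5.34 CPM in bnafah and 19.9, 9.59 and 22.4 CPM in bnaa06fah at SD1, against 0, 0 and 0.370 CPM in WT. Its WT SD1 libraries were lower than those of WT LD, at 1.34, 3.44 and 6.76 CPM, and of WT SD2, at 26.0, 15.1 and 1.57 CPM. The log2 difference from WT at SD1 was 6.65 ± 1.50 in bnafah (SE, edgeR adjusted p = 0.0405) and 7.103 ± 1.51 in bnaa06fah (SE, edgeR adjusted p = 0.00611). Its size depends on counts of a single WT library, replicate 3. Without that library WT was at 0, and the fitted difference was 12.4 in bnafah and 12.9 in bnaa06fah. The size is therefore not settled by these libraries. Without WT SD1 replicate 2 the difference was 6.06 in bnafah and 6.51 in bnaa06fah. Leaving out any WT SD1 library, bnafah SD1 replicate 1 or 2, or bnafah SD2 replicate 2, which enters the estimate of the spread, ended the bnafah call, with an adjusted p of up to 0.255. It also ended with no filter on low counts (edgeR adjusted p = 0.0930) and with only the 6 libraries compared (edgeR adjusted p = 0.0625). The bnaa06fah call ended without WT SD1 replicate 1 or 2, with an adjusted p of up to 0.0529.

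**Figure D4:**
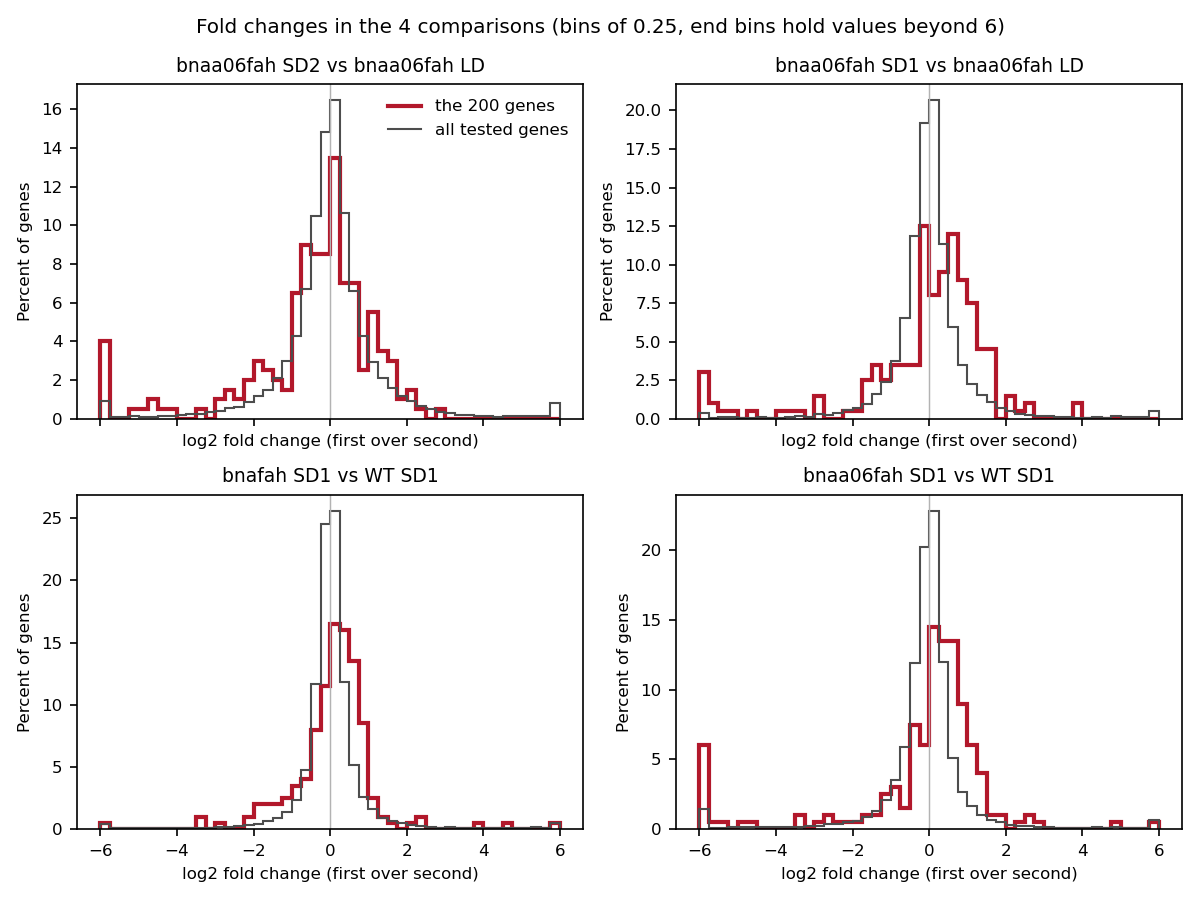
Distribution of log2 fold changes of the 200 genes (red) and of all 72039 tested genes (grey) in the 4 comparisons that the rule did not use, as percent of genes per bin of 0.25. The medians of the 200 genes are -0.15, 0.32, 0.19 and 0.26 in panel order, against 0, 0, 0.01 and -0.01 for all genes.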

How the data were processed

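RNA was sequenced from leaves of bnafah, bnaa06fah and WT plants, 27 libraries in 9 groups of 3, grouped by genotype and stage in the labels. Per the labels' protocols, total RNA from TRIzol extraction went into TruSeq libraries, which were read on an Illumina HiSeq sequencer. Trim Galore and HISAT2 were used, per the submitters' processing notes. Tool versions, the genome build and the read counter were not given in the sources used here. Deposited by the authors were a table of counts per gene, not scaled, and a table of FPKM, which was used here for levels per length and as an alternative. The row naming no gene was left out (1 of the entries).

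CPM were computed on column sums. Tests were run on the counts as deposited, with edgeR 4.0.16 (R 4.3.3): TMM scaling, filtering by group (72039 genes kept), one robust quasi-likelihood fit of all 27 libraries (18 residual degrees of freedom), Benjamini-Hochberg adjustment over all tested genes and a threshold of 0.05. SE is the fold change divided by the root of F. Alternatives were DESeq2 1.42.0, its size factors in edgeR, no filter, only the 6 libraries compared, a replicate block, and leaving out each of the libraries compared and bnafah SD2 replicate 2. For the number of genes under the rule, each of its 12 libraries was left out.

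The members, marker lists and tests were chosen with earlier results of these data known. Genes are named where they carry a name, have 1 of the 10 largest quotients or the 5 highest WT SD2 means, are called in a tested comparison (up to 3 each way), or lie next to the limit of the rule. Protein and promoter sequences were not used here. The reference gene table served for names, gene types and neighbours, with no coordinates.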

Additional observations from a re-analysis of the deposited data

How the results depend on the processing

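The number of genes that met the 3 thresholds was 301. It was 164 with 1 added to means (128 of the 200 among them), 511 with no minimum level, 44 with 4-fold thresholds, and 229 to 418 with 1 of the 12 libraries of the rule left out. In the tests, the libraries left out were the 6 compared and bnafah SD2 replicate 2. TMM-scaled sizes and the FPKM table kept it within 1.5 times. Of the 200, edgeR called 4 for bnaa06fah SD2 over LD, against 17 by DESeq2, 1 with no filter, 23 with only the 6 libraries compared, and 0 to 7 with 1 library left out; it was 0 without bnaa06fah LD replicate 1 or without any 1 of the bnaa06fah SD2 libraries. For bnaa06fah SD1 over LD, none was called, nor with 1 library left out, against 3 by DESeq2. For bnafah SD1 over WT SD1, 2 were called, against 1 with no filter and 0 to 1 with 1 library left out. For bnaa06fah SD1 over WT SD1, 2 were called, against 13 by DESeq2, 5 with only the 6 libraries compared and 1 to 2 with 1 library left out. All genes called moved as well, for bnaa06fah SD2 over LD to 11086 by DESeq2 and 11659 with 6 libraries, against 7180. The cause of these differences was not tested. With the replicate number as a block, the counts were 4 (3 of the same genes), 0, 1 and 2 in these comparisons. The calls of LOC106410361 (edgeR adjusted p = 0.0583) and, for bnafah, LOC106428920 (edgeR adjusted p = 0.0827) ended. Deviations of same-numbered libraries from their group means correlated at -0.175 to 0.158, with 4 of 12 best with their own number. No pairing by number was seen in the groups compared, which cannot show that samples were handled separately. For the genes called, no fold change in the comparison of the call changed its direction under the alternatives run. Depth limits the genes near 0 CPM, and with 3 libraries a group a small change cannot be told from none.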
